A study of Homo sapiens with 2 samples.

Results

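Tumor necrosis factor (TNF), the TNF-related apoptosis-inducing ligand TRAIL (TNFSF10) and 8 receptors of the same superfamily were compared between FaDu cells that overexpress GLUT4 and FaDu cells with a control vector. The receptors were TNFRSF1A, TNFRSF1B, TNFRSF10A, TNFRSF10B, TNFRSF10D, FAS, TNFRSF21 and TNFRSF12A. These 10 genes were chosen by name out of 19775 genes on the array, and all 23 probe sets whose platform annotation names one of them alone were used. FaDu is a human squamous carcinoma line from the pharynx. The vector control cells carried an empty control vector and the GLUT4-overexpressing cells the GLUT4 sequence, and both were stable lentiviral transductants kept under puromycin for the same period. The methods speak of stable clones, without saying whether each population grew from a single cell. Each population gave 1 Affymetrix Human Genome U133 Plus array of total RNA, so no difference below has a replicate check or a p-value.

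TNF and TRAIL are trimeric ligands that are made as membrane proteins and can be shed. On binding, receptors with an intracellular death domain recruit adaptors, which either activate NF-kappaB or assemble caspase-8 into a complex that starts apoptosis. TNFRSF10A and TNFRSF10B are the TRAIL receptors that signal death, while TNFRSF10D has a truncated death domain and acts as a decoy. In squamous epithelium, TNF is known as an inflammatory cytokine that keratinocytes can both make and answer.

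Values are normalized intensities in arbitrary units, and each difference is log2 of the intensity in GLUT4-overexpressing cells minus log2 of that in vector control cells. The median intensity was 39.7 for vector and 39.1 for GLUT4, and a probe set below that level was read as near background because no detection calls were used. The only measure of error was the scatter between the brightest pair of probe sets for the same gene, taken over 10523 genes. It gave an SD of 0.20 for a single probe set (0.21, 0.23 and 0.16 among genes of low, middle and high signal), and it leaves out variation between cultures. SLC2A4, the gene of GLUT4 itself, read 28.3 with vector and 32.6 with GLUT4, both below the array median, a difference of 0.20. GLUT4 overexpression is therefore not shown by this probe set, whose position relative to the introduced sequence was not determined. The overexpression is taken from the labels and from the paper, which reports it at the protein level in FaDu cells by western blot. Of 7 squamous epithelial markers measured, 6 lay above the median signal, among them KRT5 (11024 and 13093), SFN (11921 and 11894) and EPCAM (5361 and 3021). KRT13 was near background at 11.1 and 14.6.

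TNF mRNA was higher, and decoy receptor TNFRSF10D mRNA lower, in GLUT4-overexpressing cells, while TRAIL mRNA was about 1.5-fold lower and the signalling death receptors stayed within 1.19-fold on their brightest probe sets. By the probe set with the highest mean signal of each gene, 1 of the 10 genes (TNF) was more than 1.5-fold higher, beside 1.84% of all 19775 genes. A single gene (TNFRSF10D) was more than 1.5-fold lower, beside 1.54% of all genes. Both also passed 2-fold, which 0.42% of all genes did upward and 0.314% downward. Of the 23 probe sets, 1 was more than 1.5-fold higher (2.04% of all 54675 probe sets) and 2 were more than 1.5-fold lower (1.22%). The median difference of the 10 genes was -0.08, beside -0.02 over all genes. Below 0 lay 7 of the 10, beside 10322 of all 19775 genes.

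**Figure D1:**
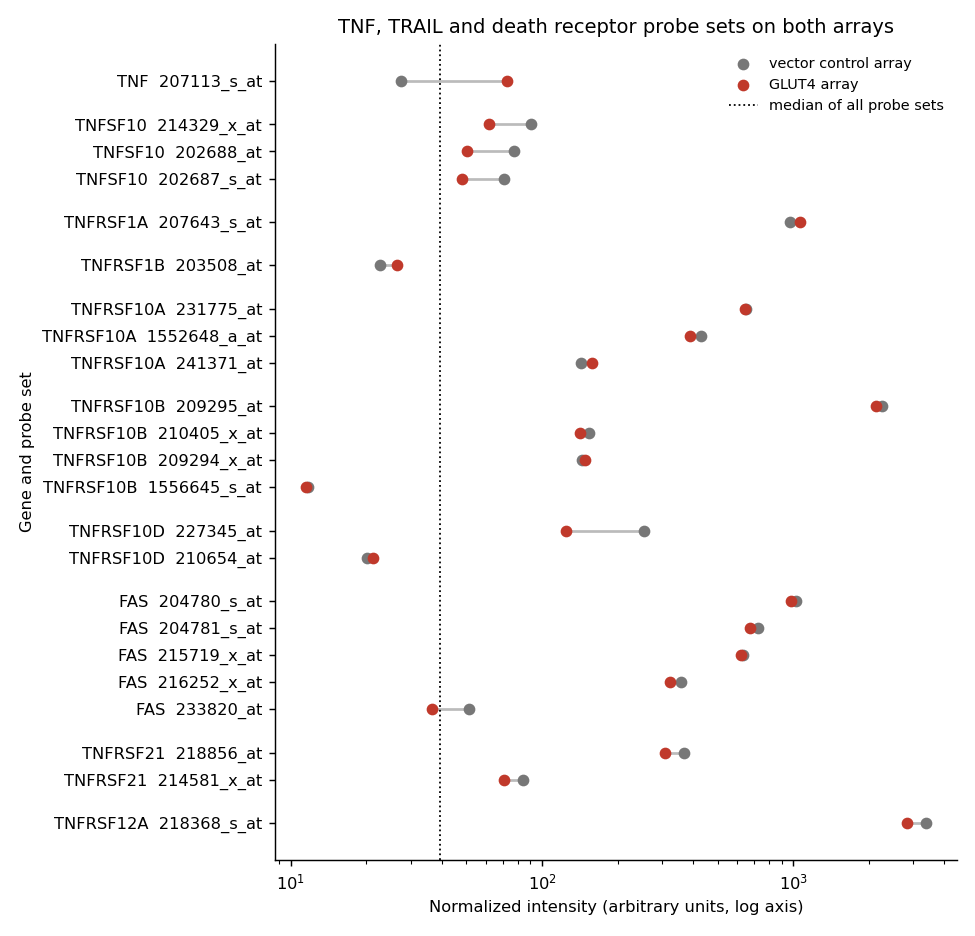
Normalized intensity (horizontal log axis, arbitrary units) of the 23 probe sets in vector control cells (grey) and GLUT4-overexpressing cells (red), with 1 array each and no error bars. TNF crosses the dotted median of all probe sets from 27.5 to 72.7, the brightest TNFRSF10D probe set moves from 254 to 124, and the 3 TNFSF10 probe sets all shift to the left.

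The ligands lay on opposite sides. TNF, which is detected by 1 probe set, read 27.5 in vector control cells and 72.7 in GLUT4-overexpressing cells, a log2 difference of 1.40 as deposited (2.64-fold). The vector value lies under the array median and the GLUT4 value above it, so the size of this fold is limited by the near-background vector signal. Of the 5467 probe sets nearest in signal, one of 10 equal bins, 3.26% were more than 1.5-fold higher. TNF came to 0.81 (1.76-fold) when an offset of 32 was added to the intensities, a step that shrinks differences between dim values. Its rank among 19775 genes, counted from the most raised, was 25 as deposited and 69 with the offset. The probe set name ends in s_at, a suffix for probes that can match several transcripts, and no second TNF probe set was there to set against it.

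TNFSF10 was lower on all 3 of its probe sets. Its brightest probe set read 90.2 with vector and 61.4 with GLUT4, 1.47-fold lower. The next read 77.2 and 50.4, 1.53-fold lower, and the last 70.6 and 48.1, again 1.47-fold lower. The 3 differences averaged -0.57 with an SD of 0.04 over probe sets, so they lie on either side of the 1.5-fold threshold within their own scatter. These probe sets read the same RNA and are no replicates. TNFSF10 is known as a gene that interferons induce, whereas TNF is known as a target of NF-kappaB. The log2 difference of TNF minus that of TNFSF10 was 1.96 as deposited and 1.20 with the offset, where the SD between paired probe sets was 0.29 as deposited.

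Because the ligands differed in direction, the bases just before their start sites are shown for both, from RefSeq on GRCh38.p14 and 5′ to 3′ on the strand of the gene. The TNF stretch is chr6:31575315-31575564 on the plus strand and the TNFSF10 stretch chr3:172523431-172523680 on the minus strand, each of 250 bases. Capitals mark matches to any of 4 motifs searched on both strands.
TNF: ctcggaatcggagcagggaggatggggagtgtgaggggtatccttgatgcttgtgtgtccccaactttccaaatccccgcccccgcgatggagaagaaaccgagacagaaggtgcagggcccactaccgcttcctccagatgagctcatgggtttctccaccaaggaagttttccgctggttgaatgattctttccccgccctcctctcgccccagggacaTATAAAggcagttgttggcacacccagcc
TNFSF10: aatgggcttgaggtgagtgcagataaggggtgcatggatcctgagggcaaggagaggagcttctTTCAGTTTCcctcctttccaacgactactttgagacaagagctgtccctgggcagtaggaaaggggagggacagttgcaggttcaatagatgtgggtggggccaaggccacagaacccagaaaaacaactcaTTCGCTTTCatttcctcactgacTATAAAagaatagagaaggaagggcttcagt

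The motifs were a kappaB-like one, GGNNNTTCC, an interferon-response-like one, GAAANNGAA, the AP-1 motif TGANTCA and the TATA box TATAAA. TNFSF10 held the interferon-response-like letters at 2 places, starting 186 and 54 bases before the start site and both on the opposite strand, as 6.88% of 35116 such RefSeq stretches did at one place or more. A TATA box stood 31 bases before the start of TNFSF10 and 29 before that of TNF, and 10.7% of all stretches held one. Neither stretch held the kappaB-like letters as written, found in 17.1% of all stretches, or the AP-1 letters, found in 6.57%. Each motif was searched as a fixed pattern, so sites with other letters would be missed. The lack of a match therefore does not show that either stretch lacks sites for NF-kappaB or AP-1. The matches are letters in a window and not measured binding.

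The TNF receptors differed little between the arrays. TNFRSF1A, the widely expressed TNF receptor with a death domain, read 967 with vector and 1060 with GLUT4, a difference of 0.13. That is 0.65 times the SD of a single probe set. TNFRSF1B, the receptor without a death domain that is best known from immune cells, read 22.7 and 26.5 (0.22). Both values are below the array median, so this probe set gave no clear signal in either population. The log2 difference of TNF minus that of TNFRSF1A was 1.27 as deposited and 0.69 with the offset of 32.

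**Figure D2:**
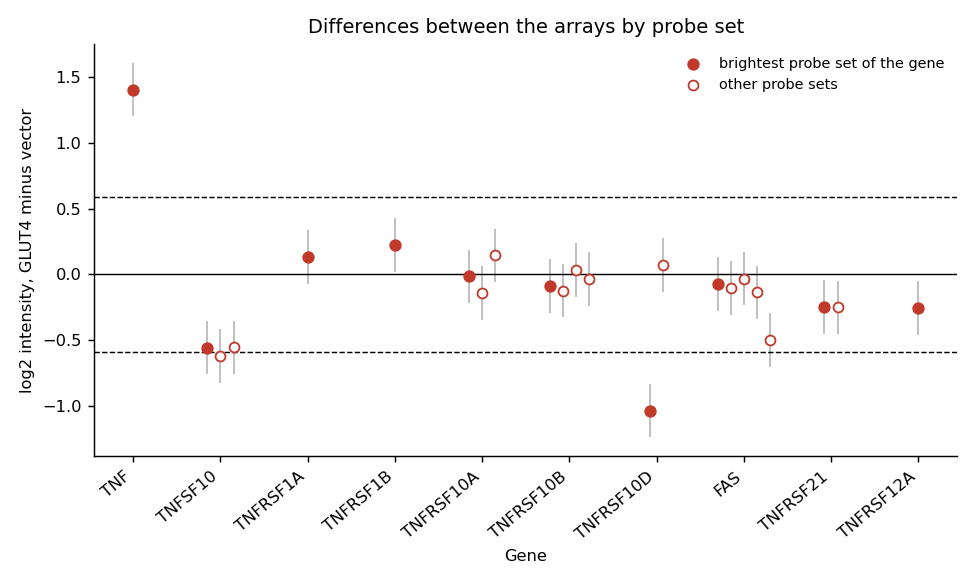
Log2 intensity in GLUT4-overexpressing cells minus vector control cells (vertical axis) for every probe set, by gene. Filled points are the brightest probe set of a gene, open points its others, grey bars the SD of 0.20 of a single probe set and dashed lines 1.5-fold; TNF (1.40) and the brightest TNFRSF10D probe set (-1.03) lie far outside the dashed lines, and a TNFSF10 probe set (-0.62) just outside.

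Among the TRAIL receptors of the 10 genes, decoy TNFRSF10D stood apart from the receptors that signal. The other TRAIL decoy, TNFRSF10C, which is outside the 10 genes, was nearly equal on both arrays (-0.02). TNFRSF10D read 254 with vector and 124 with GLUT4 on its brightest probe set, 2.04-fold lower, at rank 55 of 19775 genes from the most lowered. This difference of -1.03 was 5.06 times the SD of a single probe set, and 2.47% of the 5468 probe sets in its signal bin were more than 1.5-fold lower. Its other probe set was near background at 20.2 and 21.2, a difference of 0.07, so the lower value rests on 1 probe set. Averaged over both, TNFRSF10D came to -0.48, within 1.5-fold.

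TNFRSF10A, the first of the TRAIL death receptors, was nearly equal on both arrays. Its probe sets read 647 and 640, 429 and 388, and 143 and 158 with vector and GLUT4, with differences of -0.02, -0.14 and 0.14. TNFRSF10B, the other TRAIL death receptor, read 2260 and 2128 on its brightest probe set, a difference of -0.09. Its next probe sets read 154 and 141 (-0.12) and 145 and 148 (0.03), and a dim one read 11.7 and 11.5 (-0.03). All 7 of these probe sets were within 1.11-fold. The TNFRSF10D difference minus that of TNFRSF10A was -1.02 and minus that of TNFRSF10B was -0.94, which are 3.53 and 3.28 times the SD between paired probe sets. These multiples use the brightest probe set of each gene alone. The SD over the 2 TNFRSF10D probe sets was 0.78.

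FAS, the death receptor for FAS ligand, had 5 probe sets, all lower with GLUT4 by less than 1.5-fold. The brightest read 1028 with vector and 979 with GLUT4 (-0.07). Those after it read 724 and 675 (-0.10), 630.3 and 617 (-0.03), and 356 and 324 (-0.14). A dim one read 51.2 and 36.3, a difference of -0.50, which moved the mean over the 5 probe sets to -0.17. The bright FAS probe sets thus differed by less than the SD of 0.20 and the dim one by 2.43 times that SD.

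TNFRSF21, a receptor with a death domain known from neurons and lymphocytes, was slightly lower on both of its probe sets. It read 368 with vector and 310.0 with GLUT4 on one (-0.25) and 83.8 and 70.4 on the other (-0.25). TNFRSF12A, the receptor for the cytokine TWEAK, which lacks a death domain and is known to be induced by growth factors, read 3390 and 2838, a difference of -0.26. These differences of TNFRSF21 and TNFRSF12A were 1.22 to 1.26 times the SD of a single probe set, close to the scatter of that measure.

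**Figure D3:**
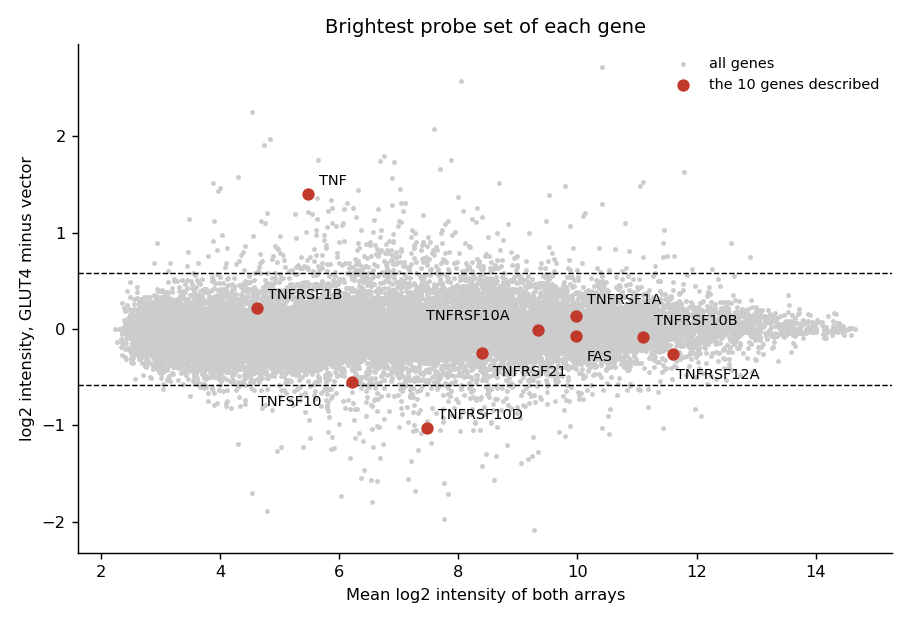
Log2 intensity in GLUT4-overexpressing minus vector control cells (vertical axis) against the average log2 signal of the arrays (horizontal axis), for the brightest probe set of each of 19775 genes (grey) and the 10 genes described (red, named). Dashed lines mark 1.5-fold. TNF lies above the upper line (rank 25 from the most raised) and TNFRSF10D below the lower line (rank 55 from the most lowered). Some grey points lie further out than each of them, and TNFSF10 lies at the lower line.

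Markers of other cell types were read beside these values. Of 12 blood cell markers measured, judged by brightest probe set, 0 were more than 1.5-fold higher with GLUT4. CD14 alone was more than 1.5-fold lower (251 to 143). The summed intensity of the 12 was 658 with vector and 509 with GLUT4, and the pan-leukocyte gene PTPRC read 8.3 and 8.1, near the lowest values of the arrays. ITGB2 was at -0.42 on its brightest probe set, and at -1.27 (68.9 to 28.5) and 0.23 (51.2 to 60.0) on its others. Of 10 fibroblast and endothelial markers, 2 were more than 1.5-fold higher, DCN (482 to 1050) and LUM (38.5 to 79.9), and 1, PECAM1, was more than 1.5-fold lower (141 to 48.2, a difference of -1.55, and below 0 on all 5 of its probe sets). Their summed intensity was 1042 and 1578, and COL1A1 read 224 and 226. Among 7 squamous epithelial markers, KRT14 was more than 1.5-fold higher (1963 to 3985) and EPCAM more than 1.5-fold lower. The part of the fibroblast and squamous markers in the differences of TNF and its relatives was not tested. In such bulk RNA, fewer cells that express a gene and less RNA per cell cannot be told apart.

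Outside the 10 genes, 129 genes of the superfamily and of the pathways around it were measured, in 9 lists that share a few genes. Past 1.5-fold, 4 of these were higher (3.10%, beside 1.84% of all genes) and 5 lower (3.88%, beside 1.54%), and the median was -0.06. Among 14 further ligands, none was more than 1.5-fold higher and 2 were more than 1.5-fold lower. CD70, the ligand of CD27, read 441 and 243, a difference of -0.86, and TNFSF15, a ligand of TNFRSF25, read 858 and 520 (-0.72), with -0.57 on its other probe set. FASLG, the ligand of FAS, was near background at 21.5 and 21.6. The ligand list had a median of -0.10. Among 20 further receptors, 1 was more than 1.5-fold lower, the B-cell receptor TNFRSF17, which was near background at 17.5 and 11.0. Of the 20, 17 lay below 0, beside 10322 of all 19775 genes, and the median was -0.09. TNFRSF10C, the other TRAIL decoy, read 44.5 and 43.9 (-0.02).

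Downstream of the receptors, 16 genes of the death-inducing complex and the caspases had a median of -0.05. None of them passed 1.5-fold in either direction on its brightest probe set, beside 1.84% of all genes higher and 1.54% lower. Of the 16, 11 lay below 0 and 5 above, beside 10322 of all 19775 genes below 0. The following 4 genes were named after their values were seen and do not stand for the list. FADD, the adaptor that links death receptors to caspases, read 1389 and 1121 (-0.31), and the initiator CASP8 read 1165 and 1075 (-0.12). BID, which carries the death signal to mitochondria, was between -0.56 and -0.30 on its 3 probe sets. CFLAR, which encodes the caspase-8 inhibitor FLIP, was above 0 on 12 of its 14 probe sets, at 0.39 on the brightest (784 to 1029) and 0.21 on average. Other caspases of the list, CASP9, CASP10 and CASP6, lay above 0 on their brightest probe sets, at 0.19, 0.18 and 0.09.

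Of 19 receptor adaptors, ligases and kinases, 1 was more than 1.5-fold higher, the adaptor TRAF5, at 117 and 186 (0.67). Its second probe set read below 7 on both arrays, and averaged over both TRAF5 came to 0.26. TRAF3, an adaptor that restrains NF-kappaB signalling, was just within 1.5-fold at 1108 and 742 (-0.58), with -0.05 on its other probe set. The list had a median of -0.04. Of 11 brakes on TNF receptor signalling, none passed 1.5-fold and the median was -0.08. TNFAIP3, the deubiquitinase that limits NF-kappaB and the gene with the largest difference above 0 in that list, read 7699 and 8753 (0.18) and 3093 and 3895 (0.33).

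Genes that TNF is known to induce through NF-kappaB were mixed. Of 18 measured, 3 were more than 1.5-fold higher (16.7%, beside 1.84% of all genes), 1 was more than 1.5-fold lower (5.56%, beside 1.54%) and 14 were within 1.5-fold, with a median of 0.09. With the offset of 32, 2 in place of 3 were higher. The chemokine CXCL2 read 5864 and 9866 (0.75), the chemokine CXCL1 2020 and 3172 (0.65), and the NF-kappaB subunit gene NFKB2 62.2 and 94.0 (0.60). On the next NFKB2 probe set the values were 54.9 and 49.8, a difference of -0.14. MMP9, a gelatinase, read 187 and 122, a difference of -0.62. Averaged over probe sets, CXCL2 came to 0.37 and NFKB2 to 0.21, within 1.5-fold. All 3 CXCL2 probe sets were above 0, and those besides the brightest were dim (39.6 and 47.3, 20.8 and 22.5). CXCL1 has 1 probe set, so averaging could not change it. The chemokine CCL20, another gene known to answer TNF, was bright and equal on both arrays at 14678 and 14729.

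**Figure D4:**
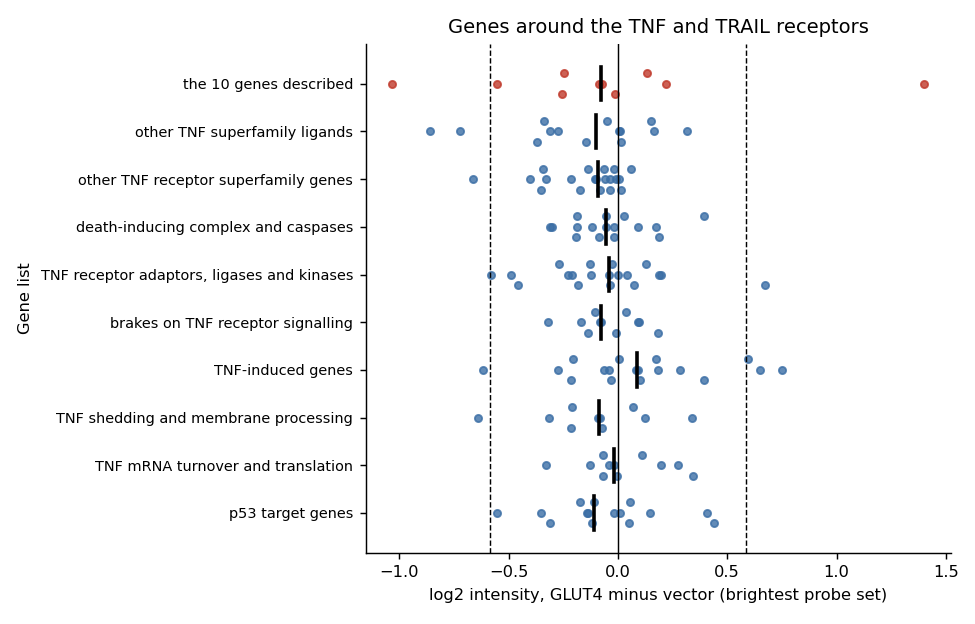
Log2 intensity in GLUT4-overexpressing minus vector control cells (horizontal axis) for the brightest probe set of each gene in the 10 genes described (red) and in 9 lists around them (blue), with black bars at list medians and dashed lines at 1.5-fold. Vertical offsets within a list only separate points; the list medians lie between -0.11 and 0.09, while TNF (1.40) and TNFRSF10D (-1.03) are the widest points to either side.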

How the data were processed

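Total RNA of FaDu cells stably transduced with GLUT4 or control vector was labelled with an Affymetrix kit that primes from the end of the transcript. It was hybridised to 1 array per group. The authors deposited linear normalized intensity values of 54675 probe sets. MAS5 stands in the submitters' processing notes, with no version, and GeneSpring with log2 normalization in the methods. The sources used here do not say how these were joined. The sorted log2 values of both arrays differed by at most 0.15, so the values were already scaled between arrays.

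Log2 was taken after a floor of 1. Of the probe sets, 41097 name 1 gene, 1801 name several and 11777 are unnamed here. Symbols were updated by Entrez identifier to RefSeq names of GRCh38.p14. Coordinates of that build were used for the promoter stretches alone. A gene was represented by its brightest probe set, judged by the log2 mean. The 1.5-fold threshold is that of the methods. The 10 genes and the 12 other lists were chosen with earlier results of these data known. From each list, up to 4 genes past 1.5-fold were named, and others were named after their values were seen. Listed genes without a probe set naming them alone are not analysed here. The number of arrays limits the precision, and no test was possible. The procedure was tested on simulated data. Alternatives were a loess fit (fraction 0.3), quantile normalization, equal array medians, an offset of 32, a signal filter, leaving out x_at and s_at probe sets, averaging and a 2-fold threshold. Promoter stretches came from RefSeq. Python 3.11.15, numpy 2.4.6, pandas 2.3.3, statsmodels 0.14.6 and matplotlib 3.10.9 were used.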

Additional observations from a re-analysis of the deposited data

How the results depend on the processing

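Under the 3 scalings of the arrays and without probe sets below the median signal, the counts of the 10 genes past 1.5-fold were as reported. TNF was then between 1.40 and 1.44 and TNFRSF10D between -1.06 and -1.01. The values were already scaled between arrays, so the 3 scalings had little room to change these differences. The filter on signal, which uses the mean of both arrays, leaves out TNFRSF1B. It keeps TNF only through the GLUT4 value of 72.7, as the vector value of 27.5 lies below the array median. The unchanged TNF result under that filter is therefore no support for it. With the offset of 32, the members' probe sets more than 1.5-fold lower came to 1 in place of 2, and TNF was at 0.81 in place of 1.40. The same offset left 0 receptors outside the members lower, 0 adaptors higher, 0 TNF-induced genes lower and 2 TNF-induced genes higher in place of 3. Without probe sets ending in x_at or s_at, TNF, TNFRSF1A and TNFRSF12A have no value, so 0 genes and 0 probe sets were more than 1.5-fold higher. TNFSF10 then stood by its probe set at -0.62, so 2 genes were more than 1.5-fold lower, and FAS stood by its dim one at -0.50. With all probe sets of a gene averaged, 0 of the 10 genes were more than 1.5-fold lower, as TNFRSF10D came to -0.48. Averaging also left 0 adaptors higher, 1 TNF-induced gene higher (CXCL1, which has 1 probe set) and 0 shedding genes lower. At 2-fold, 1 probe set was lower. Of 66 recomputed differences of single members, 63 moved by less than 0.20, and 0 differences past 1.5-fold changed sign. No paired analysis was possible because each group had 1 array. Fold differences of probe sets near background, such as those of TNFRSF1B, are limited by their signal.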

Other observations

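Genes that act on TNF before or after it is made were measured too. Of 10 genes of TNF shedding and membrane processing, 1 was more than 1.5-fold lower, ERAP1, a peptidase that also promotes shedding of TNFRSF1A, at 1113 and 715 (-0.64 on its brightest of 5 probe sets). ADAM17, the protease that releases TNF from the membrane, read 1458 with vector and 1257 with GLUT4 (-0.21). The list had a median of -0.09. Of 11 genes of TNF mRNA turnover and translation, none passed 1.5-fold on its brightest probe set, and the median was -0.02. Dimmer probe sets of RC3H2 and ELAVL1 did. RC3H2 read 152 and 298 (0.97) and 181 and 326 (0.85) on such probe sets, beside -0.33 on its brightest, and 3 of its 7 lay above 0. ELAVL1 read 110 and 55.1 (-0.99) on one, beside -0.002 on its brightest. ZFP36, which destabilises TNF mRNA, read 914 and 904.

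TRAIL receptor genes and FAS are also known as p53 targets. Of 15 other p53 target genes measured, none passed 1.5-fold in either direction, and the median was -0.11. The outermost were GDF15, a secreted stress cytokine, at 120 and 81.4 (-0.55) and SESN1, a stress-induced inhibitor of growth signalling, at 139 and 188 (0.44).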
